A study of Danio rerio with 4 samples.

Results

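Radial glia of the adult zebrafish telencephalon were compared between stab-lesioned and uninjured brains, all from fish treated with metronidazole (MTZ) to remove microglia. The lesioned library is titled 3dpl/MTZ and was taken 3 days after the stab. Its uninjured counterpart is titled Non-injured/MTZ. Cells were counted by UMIs, the unique molecular identifiers that tag each captured RNA molecule. A cell was kept when it showed 300 or more genes, when mitochondrial transcripts made up no more than 25% of its UMIs, and when at least 0.5% of them came from fabp7a, a brain fatty acid-binding protein of radial glia. This gate held 1296 cells of 3dpl/MTZ and 1254 cells of Non-injured/MTZ, together 2550 of the 4857 barcodes of the whole series of 4 libraries.

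Both libraries came from fish with Tg[GFAP:dTomato]nns17Tg and Tg[mpeg1:NTR-EYFP]w202 that were 3 to 7 months old. The first transgene marks radial glia, and the second puts nitroreductase, which turns MTZ into a cell poison, into cells with an active mpeg1 promoter, that is microglia and macrophages. Each library was made from 7 pooled telencephalons, from which 9000 to 20000 dTomato-positive cells were sorted. The treatment label says stab lesioned for both libraries, against the title of Non-injured/MTZ, and the titles were followed. MTZ and both transgenes are shared by the pair, so they do not separate the libraries. The remaining libraries, titled 3dpl and Non-injured, had no MTZ and no mpeg1 transgene, and their ratio is set beside that of the MTZ pair where a gene is described. Each group was 1 library, so no difference below has a replicate check and none was tested, and the ranges given after values are 95% intervals that cover counting error only.

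Radial glia line the ventricle of the fish telencephalon and act as its neural stem cells, and most of them are quiescent at any time. Notch signalling and its her4 targets, together with id1, are known to keep them quiescent. Type I and type II interferons act through STAT and IRF factors to switch on antiviral effectors and genes that load peptides onto class I molecules. Cells make cholesterol through the mevalonate pathway and then a series of enzymes beyond squalene, and the genes for both are known targets of the sterol-sensing factor SREBP2, with INSIG1 as its brake.

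In the gate the median cell had 4151.5 UMIs and 1628.5 genes in 3dpl/MTZ, against 2739 UMIs and 1189 genes in Non-injured/MTZ. The gate kept 79.7% (77.7 to 81.6) of the filtered cells of 3dpl/MTZ and 93.0% (91.5 to 94.3) of those of Non-injured/MTZ. Just above the gate, with 0.5 to 0.6% fabp7a, lay 26 cells of 3dpl/MTZ and 41 of Non-injured/MTZ, and just below it, with 0.4 to 0.5%, lay 19 cells of 3dpl/MTZ and 15 of Non-injured/MTZ. The radial glial intermediate filament gene gfap had a UMI in 78.2% of gate cells of 3dpl/MTZ and in 55.9% of those of Non-injured/MTZ. Outside the gate the shares were 16.1% in 3dpl/MTZ and 10.6% in Non-injured/MTZ. The gfap shares of the pair were thus higher inside the gate, though many gate cells showed no gfap UMI. In the libraries without MTZ the shares outside the gate were 51.7% in 3dpl and 56.25% in Non-injured, below those inside it. Cells were sorted with a GFAP transgene and these shares were not thinned, so gfap is not an independent check of the gate. The median share of mitochondrial UMIs was 2.88% in 3dpl/MTZ and 1.65% in Non-injured/MTZ. No barcode was shared by the pair.

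Markers of microglia or macrophages, which the treatment targets, were low in the gate but not equal. The 31 listed markers summed to 96.2 CPM (counts scaled to 1000000 gate UMIs of the library) in 3dpl/MTZ, with 14 markers at 0, and to 332 CPM in Non-injured/MTZ, with mpeg1.2, p2ry12 and p2ry13 at 0. At least 4 of these markers were seen in 1 gate cell of 3dpl/MTZ and in 37 gate cells of Non-injured/MTZ. Those 37 cells were shallow, with a median of 591 UMIs, and lay close to the gate, with a median fabp7a share of 0.61%. They are 2.95% of the gate cells of Non-injured/MTZ but hold 33044 of its 3497647 gate UMIs. Outside the gate, a further 40 cells of 3dpl/MTZ and 37 cells of Non-injured/MTZ carried at least 4 such markers, which is 2.46% (1.76 to 3.33) of the filtered cells of 3dpl/MTZ and 2.74% (1.94 to 3.76) of those of Non-injured/MTZ. In the libraries without MTZ the shares were 0.835% (0.382 to 1.58) in 3dpl and 0.137% (0.00346 to 0.760) in Non-injured, below those of both MTZ libraries. The macrophage gene mpeg1.1 had 123 UMIs outside the gate in 3dpl/MTZ, 16 in Non-injured/MTZ, 11 in 3dpl and 0 in Non-injured. Since cells were sorted for dTomato, these shares do not measure the microglia of the tissue. Leaving out cells with at least 2 such markers or at least 4 neuron markers kept all 30 genes that lead the comparison past a 2-fold ratio.

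UMIs were summed per gene over the gate cells, and a gene was called when its CPM differed at least 2-fold. Of 7423 genes with at least 100 UMIs over both libraries, 285 (3.84%) were higher and 222 (2.99%) were lower in 3dpl/MTZ. These shares are the background for the counts of list members of the MTZ pair below. The median log2 ratio was 0.02, with quartiles of −0.28 and 0.33. With size factors from edgeR's TMM method, which raised every log2 ratio by 0.08, the counts were 349 higher and 179 lower. A stricter rule also asked for a UMI in at least 5% of cells, no overlap of the share intervals and at most 10% of the UMIs from 1 cell. It left 71 higher genes (0.956%) and 77 lower genes (1.04%), and the 15 of each that lead by the bound of their interval are called the leading genes.

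**Figure D1:**
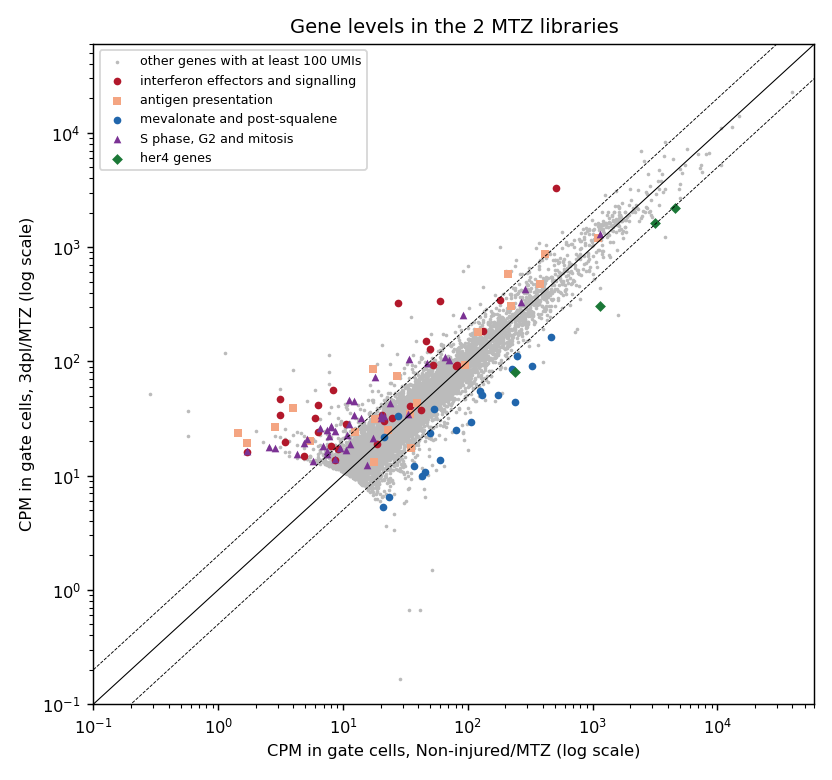
CPM of each gene with at least 100 UMIs, in gate cells of 3dpl/MTZ (vertical, log scale) against Non-injured/MTZ (horizontal, log scale); the solid line marks equal levels and the dashed lines a 2-fold difference, and 4 genes at 0 in 1 library are left out. Interferon genes lie above the upper dashed line for 17 of 30 measured members (mxb at 0 included), and sterol synthesis genes below the lower one for 17 of 20.

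Antiviral effectors of the interferon response had the highest median log2 ratio of the gene lists, though not the highest share of higher genes. Of the 45 listed genes 16 had at least 100 UMIs, the minimum for a gene to be called measured. Of these 16, 10 were at least 2-fold higher in 3dpl/MTZ and none was lower, against 3.84% higher over all genes. Their median log2 ratio was 2.44, also with the 0 UMIs of mxb in Non-injured/MTZ set to a floor of 3 counts, against 0.02 over all genes. With each gene counted at most once per cell it was 0.89 over the 12 members then measured. The 29 members with fewer UMIs summed to 772 UMIs in 3dpl/MTZ and 125 in Non-injured/MTZ, a log2 ratio of 1.84 (1.57 to 2.12). The minimum of 100 applied to the sum of both libraries, so a gene could pass it through 1 library alone. Among the higher effectors, mxb had 143 UMIs in 3dpl/MTZ and 0 in Non-injured/MTZ, and dhx58 had 206 and 11. The count of 10 higher effectors thus depends on this minimum.

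The gene isg15 (ENSDARG00000086374), whose product is a ubiquitin-like modifier attached to proteins in infected cells, had 324 CPM in 3dpl/MTZ against 27.7 CPM in Non-injured/MTZ. Its log2 ratio was 3.54 (3.25 to 3.85), and 11.08% (9.38 to 12.96) of cells thinned to 1000 UMIs held a UMI in 3dpl/MTZ, against 1.79% (1.03 to 2.89) in Non-injured/MTZ. Thinning draws the same number of UMIs from each cell, so that deeper cells do not show more genes for their depth alone, and it left 1237 cells of 3dpl/MTZ and 893 of Non-injured/MTZ. For rsad2 (ENSDARG00000004952), which encodes the antiviral enzyme viperin, the level was 337 CPM in 3dpl/MTZ against 60.0 CPM in Non-injured/MTZ, with a log2 ratio of 2.49 (2.28 to 2.70), and 8.57% of thinned cells of 3dpl/MTZ against 1.68% of those of Non-injured/MTZ had a UMI. The pro-apoptotic factor gene xaf1 (ENSDARG00000068939) had 56.5 CPM in 3dpl/MTZ and 8.29 CPM in Non-injured/MTZ, a log2 ratio of 2.77 (2.22 to 3.37).

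RNA sensors of the same group were rarer. Levels of dhx58, a regulator of RIG-I-like receptors, were 34.2 CPM in 3dpl/MTZ and 3.14 CPM in Non-injured/MTZ, and those of ifih1, the sensor MDA5, were 19.6 CPM in 3dpl/MTZ and 3.43 CPM in Non-injured/MTZ. The dynamin-like GTPase gene mxb had 143 UMIs in 71 cells of 3dpl/MTZ and 0 UMIs in Non-injured/MTZ. With that 0 set to a floor of 3 counts mxb was 27.6-fold higher, and the lower interval bound of its log2 ratio was 4.47. Its relative mxa had 16.1 CPM in 3dpl/MTZ and 1.72 CPM in Non-injured/MTZ. Not every effector differed: trim25, a ubiquitin ligase that acts on RIG-I in mammals, had a log2 ratio of 0.23 (−0.09 to 0.55), and the exonuclease gene isg20 one of −0.17 (−0.47 to 0.14).

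A family of small interferon-inducible genes related to mammalian IFI27 gave 5 of the 15 leading higher genes. The member ifi45 (ENSDARG00000017489), which the gene name table now lists as ifi27.1, had 3303 CPM (3257 to 3349) in 3dpl/MTZ and 508 CPM (484 to 532) in Non-injured/MTZ, a log2 ratio of 2.70. It was seen in 54.4% of thinned cells of 3dpl/MTZ and 24.5% of those of Non-injured/MTZ, and alone gave 73.1% of the effector UMIs of 3dpl/MTZ. Its neighbours by name behaved alike in size: ifi46 (ifi27.4, ENSDARG00000078389) had a log2 ratio of 2.75 with 679 CPM in 3dpl/MTZ against 101 CPM in Non-injured/MTZ, zgc:152791 (ifi27.2, ENSDARG00000039243) one of 2.76 with 622 CPM in 3dpl/MTZ against 91.8 CPM in Non-injured/MTZ, and si:dkey-188i13.10 (ifi27.7, ENSDARG00000075151) one of 2.82 with 246 CPM in 3dpl/MTZ against 34.9 CPM in Non-injured/MTZ. The member si:dkey-188i13.9 (ifi27.6, ENSDARG00000074754) had 83.6 CPM in 3dpl/MTZ and 4.0 CPM in Non-injured/MTZ, and its log2 ratio of 4.38 (3.62 to 5.27) was the highest of the 15 leading higher genes. In contrast si:dkey-188i13.11 (ifi27.8) had 283 CPM in 3dpl/MTZ and 192 CPM in Non-injured/MTZ, a log2 ratio of 0.56 (0.43 to 0.69). The counter can split or drop reads shared by such close copies, so the split among members is uncertain.

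Signalling genes of the interferon pathway were higher for 7 of 14 measured members and lower for none, with a median log2 ratio of 1.05. The 16 members with fewer UMIs did not share this: they summed to 231 UMIs in 3dpl/MTZ and 150 in Non-injured/MTZ. Their log2 ratio was −0.16 (−0.47 to 0.14). The transcription factor gene stat2 had 152 CPM in 3dpl/MTZ and 45.98 CPM in Non-injured/MTZ, a log2 ratio of 1.72 (1.48 to 1.97), and was seen in 12.0% of thinned cells of 3dpl/MTZ and 3.81% of those of Non-injured/MTZ. The regulators irf7 and irf1b had log2 ratios of 1.94 (1.29 to 2.66) and 1.37 (1.13 to 1.61). The related irf9, whose product binds DNA together with STAT2, had 91.8 CPM in 3dpl/MTZ and 81.2 CPM in Non-injured/MTZ, a log2 ratio of 0.18 (−0.03 to 0.39). For irf8, known for its role in making macrophages, the log2 ratio was 2.73 (2.1 to 3.43). A UMI of irf8 was seen in 2.59% of thinned cells of 3dpl/MTZ and 0.560% of those of Non-injured/MTZ. None of its 252 UMIs in 3dpl/MTZ lay in the single gate cell with at least 4 microglia or macrophage markers, which is too little to show their source. Of its 22 UMIs in Non-injured/MTZ 3 lay in the 37 such cells.

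The antigen presentation list was higher for 9 of 21 measured members and lower for 1. Its median log2 ratio was 0.78, or 0.22 with each gene counted at most once per cell. The list mixes class I genes with class II genes and chaperones, so these values are not those of class I alone. Its measured members include cd74a and cd74b, which are also on the list of microglia or macrophage markers. The 16 members with fewer UMIs had a log2 ratio of their sums of 0.07 (−0.22 to 0.38). The activator subunit gene psme1 (ENSDARG00000002165) had 86.2 CPM in 3dpl/MTZ and 17.4 CPM in Non-injured/MTZ, a log2 ratio of 2.31 (1.92 to 2.71), and the catalytic subunit gene psmb8a had 23.5 CPM in 3dpl/MTZ and 1.43 CPM in Non-injured/MTZ, a log2 ratio of 4.04 (2.79 to 5.69). For peptide transport and loading, the log2 ratios were 3.49 (2.32 to 4.96) for the transporter gene tap2a, 3.22 (2.31 to 4.31) for the tapasin gene tapbp.2 and 1.45 (1.13 to 1.78) for its copy tapbp.1. The ratios of psmb8a, tap2a and tapbp.2 rest on few cells, and these genes did not pass the stricter rule. A UMI was seen in 2.26% of thinned cells of 3dpl/MTZ for psmb8a, 1.86% for tap2a and 2.02% for tapbp.2. In Non-injured/MTZ psmb8a had 5 UMIs, tap2a had 6 and tapbp.2 had 10. Of the tapbp.2 UMIs of 3dpl/MTZ, 16.8% came from 1 cell. The class I heavy chain gene mhc1uba had 584 CPM in 3dpl/MTZ and 211 CPM in Non-injured/MTZ, a log2 ratio of 1.47 (1.35 to 1.58). Its light chain gene b2m had 876 CPM in 3dpl/MTZ and 416 CPM in Non-injured/MTZ, a log2 ratio of 1.08 (0.99 to 1.16), and was seen in 49.2% of thinned cells of 3dpl/MTZ and 32.9% of those of Non-injured/MTZ. The related b2ml, at 1198 CPM in 3dpl/MTZ and 1110 CPM in Non-injured/MTZ, had a log2 ratio of 0.11 (0.05 to 0.17). The member that was lower was mhc1uka, with 17.6 CPM in 3dpl/MTZ and 35.17 CPM in Non-injured/MTZ, and class I genes are close copies whose counts may mix. None of the 36 measured subunits of the constitutive proteasome passed 2-fold.

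The interferon signal was spread unevenly over cells. At least 3 effector UMIs per 1000 were found in 442 of 1237 cells of 3dpl/MTZ, or 35.7% (33.1 to 38.5), against 61 of 893 cells of Non-injured/MTZ, or 6.83% (5.27 to 8.69). Without thinning the shares were 64.7% in 3dpl/MTZ and 21.1% in Non-injured/MTZ, and without ifi45 they were 10.1% (8.48 to 11.9) in 3dpl/MTZ and 0.784% (0.316 to 1.61) in Non-injured/MTZ. The 10% of cells with most effector UMIs held 57.9% of the effector UMIs in 3dpl/MTZ and 60.7% in Non-injured/MTZ. The means were 4.97 effector UMIs per 1000 in 3dpl/MTZ and 0.834 in Non-injured/MTZ. Such unevenness was not particular to effectors. In 3dpl/MTZ the top 10% of cells held 58.3% of her4 UMIs, 52.2% of sterol pathway UMIs and 46.8% of cell cycle UMIs, but 27.7% of antigen presentation UMIs. In 3dpl/MTZ 34.9% of cells had no effector UMI and 15.7% had 10 or more, and in Non-injured/MTZ 61.3% had none and 1.23% had 10 or more.

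Free RNA can give a UMI to a cell that does not make a transcript, so the same shares were read in cells outside the gate with at least 4 neuron markers. In 3dpl/MTZ there were 152 such cells after thinning, with a median of 3009.5 UMIs before it. Of these, 3.29% held ifi45, 0.658% held isg15 and 5.92% held b2m, all below the gate shares. Non-injured/MTZ had 6 such cells, too few for a background of its own. A transcript that these cells make themselves would also be counted there, so a high share does not by itself measure free RNA.

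**Figure D2:**
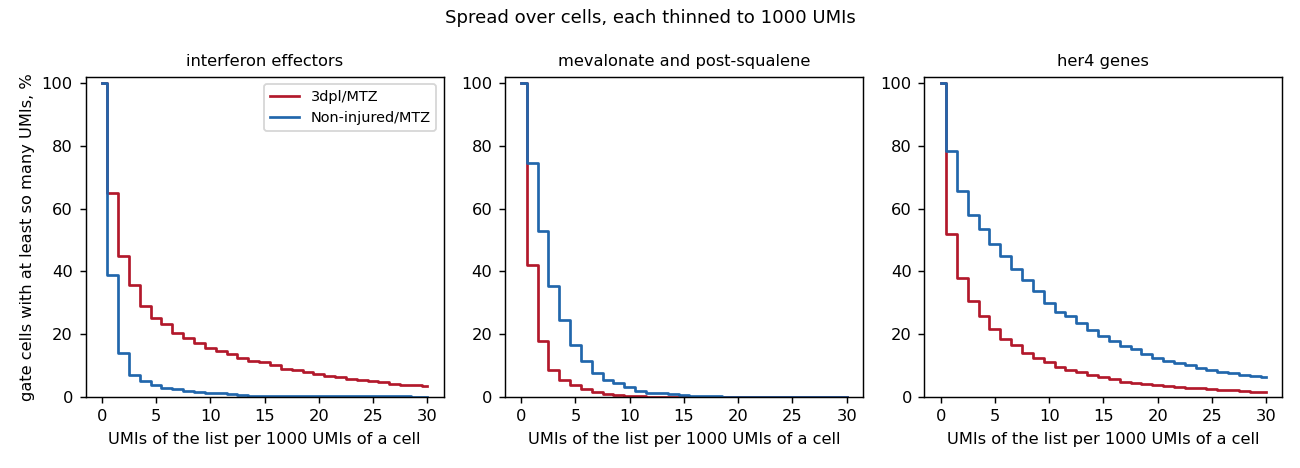
Share of gate cells (vertical, %) with at least the given number of UMIs of a gene list per 1000 UMIs of the cell (horizontal), for 3dpl/MTZ (red) and Non-injured/MTZ (blue). The interferon curve of 3dpl/MTZ lies above that of Non-injured/MTZ, with 35.7% of cells of 3dpl/MTZ and 6.83% of cells of Non-injured/MTZ at 3 or more UMIs, and its sterol and her4 curves lie below those of Non-injured/MTZ at that number.

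Sterol synthesis was the leading group among the lower genes. Of the 9 measured enzymes of the mevalonate branch 8 were at least 2-fold lower in 3dpl/MTZ, and of the 11 enzymes beyond squalene 9 were, against 2.99% lower over all genes. Their median log2 ratios were −1.42 and −1.78. The summed level of the mevalonate branch was 446 CPM in 3dpl/MTZ and 1187 CPM in Non-injured/MTZ, a log2 ratio of −1.41 (−1.48 to −1.34). That of the later enzymes was 452 CPM in 3dpl/MTZ and 1361 CPM in Non-injured/MTZ, a log2 ratio of −1.59 (−1.66 to −1.52).

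At the entry of the pathway, hmgcs1 (ENSDARG00000103025), which makes HMG-CoA, had 90.2 CPM in 3dpl/MTZ and 326 CPM in Non-injured/MTZ, a log2 ratio of −1.85 (−2.0 to −1.71). The rate-limiting reductase is encoded by 2 genes that differed: hmgcra had 112 CPM in 3dpl/MTZ and 246 CPM in Non-injured/MTZ, a log2 ratio of −1.14 (−1.28 to −0.99), while the rarer hmgcrb had 21.7 CPM in 3dpl/MTZ and 21.4 CPM in Non-injured/MTZ, a log2 ratio of 0.02 (−0.40 to 0.45). Further down, the log2 ratios were −1.67 (−1.96 to −1.38) for the isomerase gene idi1, −1.42 (−1.58 to −1.25) for the farnesyl diphosphate synthase gene fdps and −2.1 (−2.56 to −1.66) for sqlea, which opens the way to the sterol ring.

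Beyond squalene, sc5d (ENSDARG00000044642), the sterol C5 desaturase, had 43.8 CPM in 3dpl/MTZ and 240 CPM in Non-injured/MTZ. Its log2 ratio of −2.45 (−2.66 to −2.25) was the lowest of the pathway, and it was seen in 4.28% of thinned cells of 3dpl/MTZ and 18.3% of those of Non-injured/MTZ. The demethylase gene cyp51 had 50.9 CPM in 3dpl/MTZ and 175 CPM in Non-injured/MTZ, and the C4 methyl oxidase gene msmo1 had 163 CPM in 3dpl/MTZ and 466 CPM in Non-injured/MTZ, log2 ratios of −1.78 (−1.99 to −1.58) and −1.51 (−1.63 to −1.40). Later in the series, dhcr7, the reductase that makes cholesterol from its precursor, had 38.13 CPM in 3dpl/MTZ and 53.5 CPM in Non-injured/MTZ, a log2 ratio of −0.49 (−0.77 to −0.20) that stayed under 2-fold. The exception in the other direction was lbr, which doubles as a protein of the nuclear envelope, with 33.2 CPM in 3dpl/MTZ and 27.4 CPM in Non-injured/MTZ and a log2 ratio of 0.27 (−0.09 to 0.64).

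Of the 13 measured genes of sterol regulation and transport, 2 were higher and 1 was lower. The lower gene was insig1, the feedback brake of the pathway, with 436 CPM in 3dpl/MTZ and 1155 CPM in Non-injured/MTZ, a log2 ratio of −1.40 (−1.48 to −1.33). A UMI of it was seen in 24.6% of thinned cells of 3dpl/MTZ and 56.2% of those of Non-injured/MTZ. In the neuron-marker cells of 3dpl/MTZ that share was 30.9%, above the 24.6% of the gate. For insig1, free RNA and expression by gate cells of 3dpl/MTZ can therefore not be told apart by these shares. The cholesterol exporter gene abca1a was higher, with 107 CPM in 3dpl/MTZ and 51.7 CPM in Non-injured/MTZ, a log2 ratio of 1.04 (0.80 to 1.29). The LDL receptor gene ldlra, which brings cholesterol in, had 44.8 CPM in 3dpl/MTZ and 69.2 CPM in Non-injured/MTZ, a log2 ratio of −0.63 (−0.88 to −0.37). Outside the list, tmem97 (ENSDARG00000040553), the sigma-2 receptor and a regulator of cholesterol transport in mammals, had 44.6 CPM in 3dpl/MTZ and 165 CPM in Non-injured/MTZ, a log2 ratio of −1.88 (−2.10 to −1.67).

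Among genes of lipid handling, the lipase gene lipg (ENSDARG00000031044) had 183 CPM in 3dpl/MTZ and 718 CPM in Non-injured/MTZ, a log2 ratio of −1.98 (−2.08 to −1.87), and was seen in 12.1% of thinned cells of 3dpl/MTZ and 36.4% of those of Non-injured/MTZ. The apolipoprotein E gene apoeb, a lipid carrier, had 142 CPM in 3dpl/MTZ and 60.6 CPM in Non-injured/MTZ, a log2 ratio of 1.23 (1.01 to 1.45). Of the 212 apoeb UMIs of Non-injured/MTZ, 55 lay in the 37 cells with microglia or macrophage markers. None of the 856 of 3dpl/MTZ lay in its single such cell, which is too little to show their source. Over the 19 measured genes of fatty acid synthesis and lipid handling, 1 was higher and 4 were lower, among them the apolipoprotein gene apoc1, described below.

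Per cell, at least 3 UMIs of the sterol pathway per 1000 were found in 106 of 1237 cells of 3dpl/MTZ, or 8.57% (7.07 to 10.3), and in 316 of 893 cells of Non-injured/MTZ, or 35.4% (32.2 to 38.62). The unthinned shares were 40.3% in 3dpl/MTZ and 55.7% in Non-injured/MTZ. Sterol and interferon levels were also set against each other within 3dpl/MTZ. Cells with no effector UMI averaged 1.05 sterol UMIs per 1000, those with 1 to 2 averaged 0.796, those with 3 to 9 averaged 0.694 and those with 10 or more averaged 0.619. In Non-injured/MTZ the same groups averaged 2.56, 2.27, 2.16 and 1.0 sterol UMIs per 1000, the last over 11 cells. The means thus fell in both libraries. The cells of 3dpl/MTZ without an effector UMI were also below the 2.56 of such cells of Non-injured/MTZ. Each value is a mean over cells of 1 library and shares its depth.

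Notch target genes of the her4 family were among the lower genes. The genes her4.4 (ENSDARG00000009822), her4.3 and her4.1 passed 2-fold, the only 3 of 27 measured genes of the Notch pathway to do so, and none of the 27 was 2-fold higher. The level of her4.4 was 302 CPM in 3dpl/MTZ and 1141 CPM in Non-injured/MTZ, a log2 ratio of −1.92 (−2.0 to −1.84), with a UMI in 10.3% of thinned cells of 3dpl/MTZ and 32.6% of those of Non-injured/MTZ. For her4.1 the levels were 2195 CPM in 3dpl/MTZ and 4538 CPM in Non-injured/MTZ, a log2 ratio of −1.05 (−1.08 to −1.01), and for her4.2 they were 1635 CPM in 3dpl/MTZ and 3178 CPM in Non-injured/MTZ, a log2 ratio of −0.96 (−1.0 to −0.92). These genes are close copies, so the share of each is uncertain, but their sum per cell differed the same way. At least 3 her4 UMIs per 1000 were found in 30.6% (28.0 to 33.2) of cells of 3dpl/MTZ and 58.1% (54.8 to 61.4) of those of Non-injured/MTZ. Without thinning the shares were closer, at 49.9% in 3dpl/MTZ and 56.5% in Non-injured/MTZ. Thinning left out 59 shallow cells of 3dpl/MTZ and 361 of Non-injured/MTZ.

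The rest of the pathway differed less. The receptor gene notch3, typical of quiescent radial glia in fish, had 784 CPM in 3dpl/MTZ and 929 CPM in Non-injured/MTZ, a log2 ratio of −0.25 (−0.31 to −0.18). The hairy-related gene her6 had a log2 ratio of −0.69 (−0.73 to −0.65), while her15.1 had one of 0.11 (0.03 to 0.19). The median of the 27 genes was −0.16. The BMP target id1 had 2667 CPM in 3dpl/MTZ and 5030 CPM in Non-injured/MTZ, a log2 ratio of −0.92 (−0.95 to −0.88) that stayed under 2-fold. Within 3dpl/MTZ, cells with 10 or more cell cycle UMIs per 1000 averaged 5.24 her4 UMIs and those with no cell cycle UMI averaged 2.55.

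Genes of radial glial identity mostly stayed within 2-fold, at shares near those over all genes. Of 33 measured members 1 (3.03%) was higher and 1 (3.03%), her4.1, was lower, against 3.84% and 2.99% over all genes. Their median log2 ratio was −0.16. The list holds fabp7a, which the gate used, and gfap, the gene named in the dTomato transgene used for sorting. Both were thus selected for in each library. The glutamate transporter gene slc1a2b had 11182 CPM in 3dpl/MTZ and 13218 CPM in Non-injured/MTZ, and the glutamine synthetase gene glula had 14038 CPM in 3dpl/MTZ and 14994 CPM in Non-injured/MTZ, log2 ratios of −0.24 and −0.10. The gate gene fabp7a had 22950 CPM in 3dpl/MTZ and 39576 CPM in Non-injured/MTZ, and gfap had 779 CPM in 3dpl/MTZ and 495 CPM in Non-injured/MTZ, a log2 ratio of 0.65 (0.57 to 0.73). The higher member, nrgna, had 54.0% of its 211 UMIs of 3dpl/MTZ in 1 cell and a UMI in 1.54% of thinned cells of 3dpl/MTZ and 1.46% of those of Non-injured/MTZ.

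**Figure D3:**
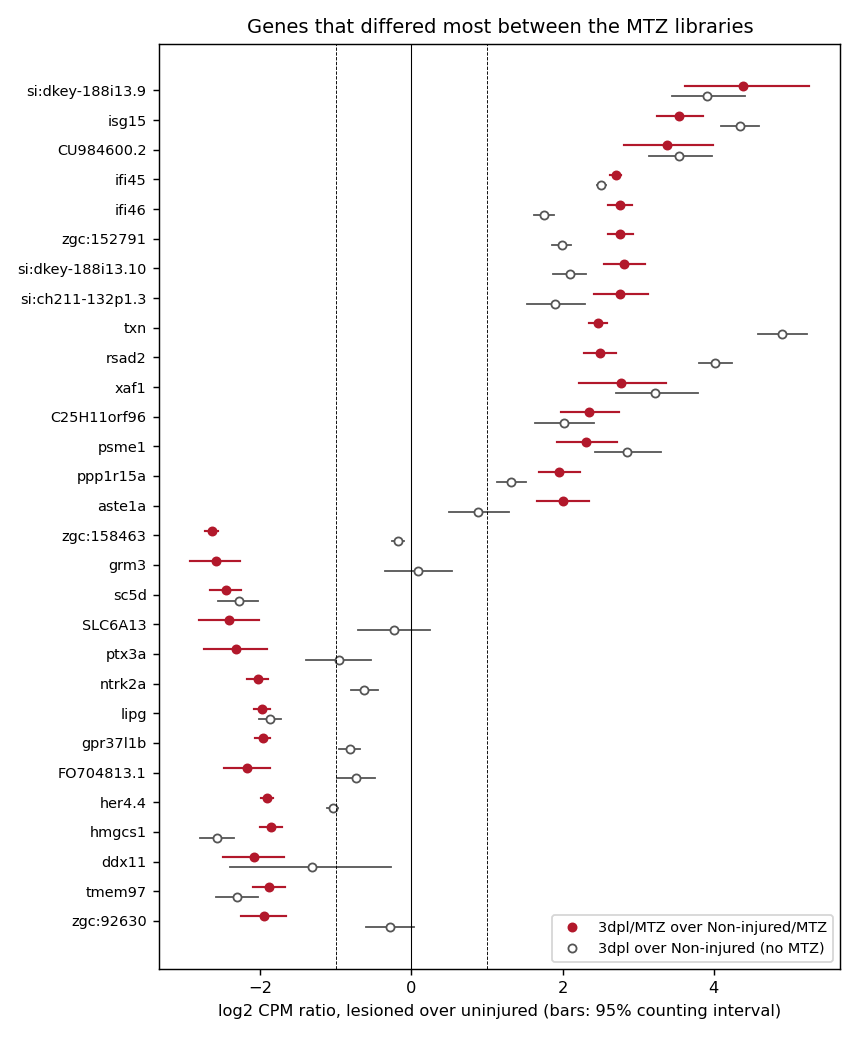
Log2 CPM ratio (horizontal) of 15 higher and 14 lower leading genes of the MTZ pair (rows), as filled points for 3dpl/MTZ over Non-injured/MTZ and open points for 3dpl over Non-injured, with 95% counting intervals as bars and dashed lines at 2-fold. The filled points lie between 1.96 and 4.38 for higher genes and between −1.85 and −2.64 for lower genes, and the open points of grm3, SLC6A13, zgc:92630 and zgc:158463 lie near 0.

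Receptors, a transporter and a channel known from glia were among the other leading lower genes. The metabotropic glutamate receptor gene grm3 (ENSDARG00000031712), expressed by astrocytes in mammals, had 16.7 CPM in 3dpl/MTZ and 101 CPM in Non-injured/MTZ, a log2 ratio of −2.59 (−2.93 to −2.27). A UMI of it was seen in 1.46% (0.865 to 2.29) of thinned cells of 3dpl/MTZ and 9.97% (8.08 to 12.1) of those of Non-injured/MTZ. The orphan receptor gene gpr37l1b (ENSDARG00000056774), related to a receptor of mammalian astrocytes, had 190 CPM in 3dpl/MTZ and 747 CPM in Non-injured/MTZ, or a log2 ratio of −1.97 (−2.07 to −1.87). The gene ntrk2a (ENSDARG00000059897), for a receptor of the neurotrophin BDNF, had 97.8 CPM in 3dpl/MTZ and 401 CPM in Non-injured/MTZ, a log2 ratio of −2.03 (−2.18 to −1.90).

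Of the transporters and channels, SLC6A13 (ENSDARG00000067567), listed by the files under the symbol of a mammalian GABA transporter, had 12.1 CPM in 3dpl/MTZ and 64.3 CPM in Non-injured/MTZ, a log2 ratio of −2.41 (−2.81 to −2.02). The feature FO704813.1 (ENSDARG00000105022), which the name table pairs with the potassium channel KCNJ10 of glia, had 20.6 CPM in 3dpl/MTZ and 92.6 CPM in Non-injured/MTZ, a log2 ratio of −2.17 (−2.48 to −1.87). The secreted pentraxin gene ptx3a (ENSDARG00000068275) had 11.11 CPM in 3dpl/MTZ and 55.5 CPM in Non-injured/MTZ, the helicase gene ddx11 (ENSDARG00000011072) had 12.3 CPM in 3dpl/MTZ and 52.0 CPM in Non-injured/MTZ, and zgc:92630 (dhrs11b.2, ENSDARG00000004141), a member of the dehydrogenase and reductase family, had 23.5 CPM in 3dpl/MTZ and 91.2 CPM in Non-injured/MTZ. Their log2 ratios were −2.32, −2.08 and −1.95.

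Several lower genes outside the stricter rule had intervals farther from 0 than any leading lower gene, among them ccr9a, described below. Among the leading lower genes the interval farthest from 0 was that of zgc:158463 (ENSDARG00000089382). This gene had 255 CPM in 3dpl/MTZ and 1592 CPM in Non-injured/MTZ, a log2 ratio of −2.64 (−2.73 to −2.56). It was seen in 21.4% of thinned gate cells of 3dpl/MTZ and 76.3% of those of Non-injured/MTZ. In the neuron-marker cells of 3dpl/MTZ outside the gate the share was 26.3%, above that of the gate. Free RNA and expression by gate cells of 3dpl/MTZ can therefore not be told apart by these shares. In Non-injured/MTZ 5 of the 5 thinned neuron-marker cells held a UMI of zgc:158463, a share of 100% (47.8 to 100). These cells are too few for a background, so the same limit holds for Non-injured/MTZ. The metallothionein gene mt2, which binds metal ions, had 5199 CPM in 3dpl/MTZ and 10753 CPM in Non-injured/MTZ, a log2 ratio of −1.05 (−1.07 to −1.03).

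Of 5 lower genes most UMIs of Non-injured/MTZ lay in its gate cells with microglia or macrophage markers. The chemokine receptor genes ccr9a and cxcr4b each had 0 UMIs in 3dpl/MTZ, against 131 for ccr9a and 125 for cxcr4b in Non-injured/MTZ, and havcr1, a phosphatidylserine receptor gene, had 0 in 3dpl/MTZ and 112 in Non-injured/MTZ. With their 0 set to a floor of 3 counts, ccr9a, cxcr4b and havcr1 were 75.3-fold, 71.9-fold and 64.4-fold lower. The interval bounds nearest to 0 were log2 ratios of −5.92, −5.85 and −5.69. The chemokine gene ccl35.1 had 1 UMI in 3dpl/MTZ and 100 in Non-injured/MTZ, and the apolipoprotein gene apoc1 had 9 in 3dpl/MTZ and 180 in Non-injured/MTZ. In Non-injured/MTZ between 69.0% and 84.8% of the UMIs of these genes lay in the 37 gate cells with at least 4 such markers, a list that holds havcr1 itself. The other gate cells of Non-injured/MTZ still held 24 UMIs of ccr9a, 19 of cxcr4b, 19 of havcr1, 31 of ccl35.1 and 37 of apoc1.

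Stress and redox genes were among the leading higher genes. The thioredoxin gene txn (ENSDARG00000044125), also listed as txnb, whose product reduces oxidised proteins, had 1012 CPM in 3dpl/MTZ and 182 CPM in Non-injured/MTZ, a log2 ratio of 2.47 (2.35 to 2.59). It was seen in 29.0% of thinned cells of 3dpl/MTZ and 12.5% of those of Non-injured/MTZ, and in 4.61% of the neuron-marker cells of 3dpl/MTZ. The gene ppp1r15a (ENSDARG00000069135), whose product restores translation after stress, had 150 CPM in 3dpl/MTZ and 38.597 CPM in Non-injured/MTZ, a log2 ratio of 1.96 (1.69 to 2.23), but its share of 10.4% in the gate of 3dpl/MTZ was close to the 9.87% of the neuron-marker cells. For C25H11orf96 (ENSDARG00000097208) the levels were 95 CPM in 3dpl/MTZ and 18.6 CPM in Non-injured/MTZ. Its gate share of 6.22% in 3dpl/MTZ lay below the 11.2% of the neuron-marker cells, so free RNA and expression by gate cells can not be told apart by these shares. Over the 45 measured redox and stress genes 4 (8.89%) were higher and 3 (6.67%) lower, against 3.84% and 2.99% over all genes. Their median log2 ratio was −0.05 and turned to 0.03 under TMM scaling.

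Of 3 further leading genes no role is stated here. CU984600.2 (ENSDARG00000098204) had 80.1 CPM in 3dpl/MTZ and 7.72 CPM in Non-injured/MTZ, a log2 ratio of 3.37 (2.82 to 3.99). The feature si:ch211-132p1.3 (ENSDARG00000090889), paired with LECT2 in the name table, had 140 CPM in 3dpl/MTZ and 20.6 CPM in Non-injured/MTZ, a log2 ratio of 2.76 (2.41 to 3.13), and aste1a (ENSDARG00000070132) had 95 CPM in 3dpl/MTZ and 23.7 CPM in Non-injured/MTZ, a log2 ratio of 2.0 (1.67 to 2.35). No UMI of si:ch211-132p1.3 or aste1a was found in the 152 neuron-marker cells, which allows a share of up to 2.40% by the Clopper-Pearson interval.

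Genes of reactive glia were higher for 8 (20%) of 40 measured members and lower for 2 (5%), against 3.84% and 2.99% over all genes. Their median log2 ratio was 0.16. Among them anxa2a, a membrane-binding annexin gene, had 256 CPM in 3dpl/MTZ and 75.5 CPM in Non-injured/MTZ, a log2 ratio of 1.76 (1.58 to 1.96). The matricellular gene ccn2a, a known target of YAP, had 116 CPM in 3dpl/MTZ and 27.2 CPM in Non-injured/MTZ, a log2 ratio of 2.1 (1.78 to 2.42), and timp2b, an inhibitor of matrix proteases, had 76.1 CPM in 3dpl/MTZ and 28.9 CPM in Non-injured/MTZ. The filament genes that mark reactive astrocytes in mammals differed less, with log2 ratios of 0.65 for gfap and 0.19 (0.10 to 0.28) for vim. Of the 39 measured heat shock genes 3 (7.69%) were higher, against 3.84% over all genes, and none was lower. The largest ratio among them was that of the co-chaperone gene bag3, with 447 CPM in 3dpl/MTZ and 132 CPM in Non-injured/MTZ, a log2 ratio of 1.76 (1.62 to 1.90).

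The list of STAT3 and gp130 genes was higher for 7 of 18 measured members and lower for none, with a median log2 ratio of 0.59. Not all its members are parts of cytokine signalling, and 1 of the 7 was lin28a, seen in few cells as described below. Feedback inhibitors of STAT3 led by level: socs3b had 778 CPM in 3dpl/MTZ and 244 CPM in Non-injured/MTZ, a log2 ratio of 1.68 (1.57 to 1.78), and socs3a had 2843 CPM in 3dpl/MTZ and 1268 CPM in Non-injured/MTZ, a log2 ratio of 1.16 (1.12 to 1.21). A UMI of socs3b was seen in 32.9% of thinned gate cells of 3dpl/MTZ and 16.8% of those of Non-injured/MTZ, against 3.29% of the neuron-marker cells of 3dpl/MTZ. The TNF and NF-kB list had 4 higher genes of 19, among them the NF-kB subunit genes relb and nfkb2, with log2 ratios of 1.32 (1.0 to 1.65) and 1.47 (1.01 to 1.95). The beta-catenin list had 2 higher genes of 30, or 6.67%. The share of higher genes over all genes was 3.84%, against 21.1% of the TNF and NF-kB list.

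Genes of secreted signals and their receptors lay in 3 lists whose members mostly stayed within 2-fold. Of 14 chemokine and cytokine genes 2 (14.3%) were higher and 3 (21.4%) lower, against 3.84% and 2.99% over all genes. The 3 lower ones were ccr9a, cxcr4b and ccl35.1, whose UMIs of Non-injured/MTZ lay mostly in cells with microglia or macrophage markers. Of 29 midkine and growth factor genes 2 (6.90%) were higher and 2 (6.90%) lower. Of 21 genes of BMP and TGF-beta 1 (4.76%) was higher and 1 (4.76%) lower. The chemokine gene cxcl18b had 1035 CPM in 3dpl/MTZ and 420 CPM in Non-injured/MTZ, a log2 ratio of 1.3 (1.22 to 1.38). The growth factor gene hbegfa, a ligand of the EGF receptor that acts in fish retinal repair, had 1096 CPM in 3dpl/MTZ and 370 CPM in Non-injured/MTZ, a log2 ratio of 1.57 (1.48 to 1.65). The transforming growth factor gene tgfb1a had 107 CPM in 3dpl/MTZ and 42.6 CPM in Non-injured/MTZ, a log2 ratio of 1.33 (1.08 to 1.6), and the BMP-like gene gdf10a had 5.80 CPM in 3dpl/MTZ and 30.6 CPM in Non-injured/MTZ, a log2 ratio of −2.40 (−2.99 to −1.84). Of 41 immediate early and AP-1 genes 3 (7.32%) were higher and 2 (4.88%) lower, against 3.84% and 2.99% over all genes, with egr4 at 584 CPM in 3dpl/MTZ and 260 CPM in Non-injured/MTZ and fosl2 at 581 CPM in 3dpl/MTZ and 274 CPM in Non-injured/MTZ.

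Some of the largest ratios came from few cells. The RNA-binding reprogramming factor gene lin28a, which is switched on in fish Müller glia after injury, had 310 UMIs in 23 cells of 3dpl/MTZ and 1 UMI in 1 cell of Non-injured/MTZ. Its log2 ratio was 7.49 (5.0 to 12.80), and 17.7% of its UMIs came from 1 cell. Of si:ch211-183d5.2 there were 716 UMIs in 3dpl/MTZ and 4 in Non-injured/MTZ, and 16.8% of those of 3dpl/MTZ came from 1 cell. The natriuretic peptide gene nppb had 683 UMIs in 3dpl/MTZ and 27 in Non-injured/MTZ, and was seen in 2.02% of thinned cells of 3dpl/MTZ and 0.112% of those of Non-injured/MTZ. The complement gene c7b, whose product is part of the membrane attack complex, had 349 UMIs in 92 cells of 3dpl/MTZ and 11 UMIs in 7 cells of Non-injured/MTZ, a log2 ratio of 4.2 (3.34 to 5.22). The chemokine gene ccl19a.1 had 63.7 CPM in 3dpl/MTZ and 7.72 CPM in Non-injured/MTZ, a log2 ratio of 3.04 (2.48 to 3.66).

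Cell cycle genes were higher as well. The S phase list had 17 higher genes of 27 measured and none lower, with a median log2 ratio of 1.35, and the G2 and mitosis list had 9 of 15 and none lower, with a median of 1.06. With each gene counted at most once per cell the median was 0.96 for S phase and 0.11 for the 6 measured genes of G2 and mitosis. The replication clamp gene pcna had 252 CPM in 3dpl/MTZ and 91.8 CPM in Non-injured/MTZ, a log2 ratio of 1.46 (1.28 to 1.64). The replicative helicase gene mcm6 had 45.8 CPM in 3dpl/MTZ and 11.2 CPM in Non-injured/MTZ, the remodeller gene hells 73.3 CPM in 3dpl/MTZ and 18 CPM in Non-injured/MTZ and the nucleotide-making enzyme gene rrm2 104 CPM in 3dpl/MTZ and 33.7 CPM in Non-injured/MTZ, log2 ratios of 2.04, 2.02 and 1.63. The proliferation marker mki67 had 26.4 CPM in 3dpl/MTZ and 6.58 CPM in Non-injured/MTZ, a log2 ratio of 2.0 (1.37 to 2.70), and the topoisomerase gene top2a had 17.9 CPM in 3dpl/MTZ and 2.57 CPM in Non-injured/MTZ, a log2 ratio of 2.80 (1.82 to 3.97). High loads were rare: 10 or more cell cycle UMIs per 1000 were found in 72 of 1237 cells of 3dpl/MTZ, or 5.82% (4.58 to 7.27), and in 19 of 893 cells of Non-injured/MTZ, or 2.13% (1.29 to 3.30). At 3 or more UMIs, the cutoff used for the other lists, the intervals overlapped. The shares were then 37.7% (35.0 to 40.4) in 3dpl/MTZ and 33.8% (30.7 to 37.0) in Non-injured/MTZ. No cell cycle UMI was found in 18.3% of cells of 3dpl/MTZ and 14.6% of those of Non-injured/MTZ. Of the neuron-marker cells of 3dpl/MTZ 3.95% held a pcna UMI, against 10.5% of its gate cells and 6.94% of those of Non-injured/MTZ.

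**Figure D4:**
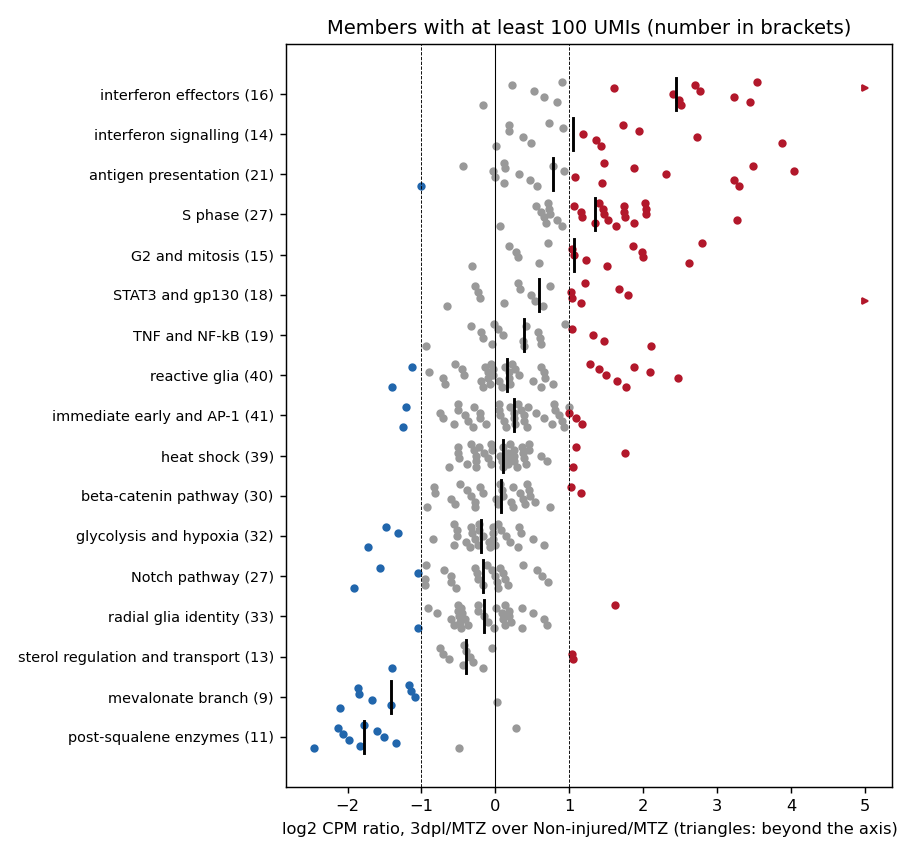
Log2 CPM ratio of 3dpl/MTZ over Non-injured/MTZ (horizontal) for the members of 17 gene lists (rows) with at least 100 UMIs, in red where at least 2-fold higher, in blue where at least 2-fold lower and in grey otherwise; black bars are medians and triangles lie beyond the axis. Medians run between 2.44 for interferon effectors and −1.78 for enzymes beyond squalene.

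Most genes of several large groups stayed within 2-fold, as did 6916 of all 7423 measured genes. Of 81 cytosolic ribosomal protein genes none was higher and 1 was lower, and of 76 nuclear genes of oxidative phosphorylation none was higher and 2 were lower, with median log2 ratios of 0.25, which turned to −0.19 with each gene counted at most once per cell, and −0.32. The second of these lay below the lower quartile of all genes, and 68 of its 76 members were below 0. Of 32 glycolysis and hypoxia genes 3 (9.38%) were lower, against 2.99% over all genes, and none was higher. Of these 32 genes 23 were below 0. The 13 transcripts of the mitochondrial genome differed more, with a summed level of 33390 CPM in 3dpl/MTZ and 17067 CPM in Non-injured/MTZ, a log2 ratio of 0.97 (0.96 to 0.98), though their median ratio turned negative with each gene counted at most once per cell. The oxidase subunit transcript mt-co2 had 7011 CPM in 3dpl/MTZ and 2466 CPM in Non-injured/MTZ, a log2 ratio of 1.51 (1.47 to 1.54). The part of this difference in mitochondrial share in the other gene groups was not tested, and a stricter filter of 800 genes and 10% mitochondrial UMIs kept all 30 leading genes past 2-fold.

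**Figure D5:**
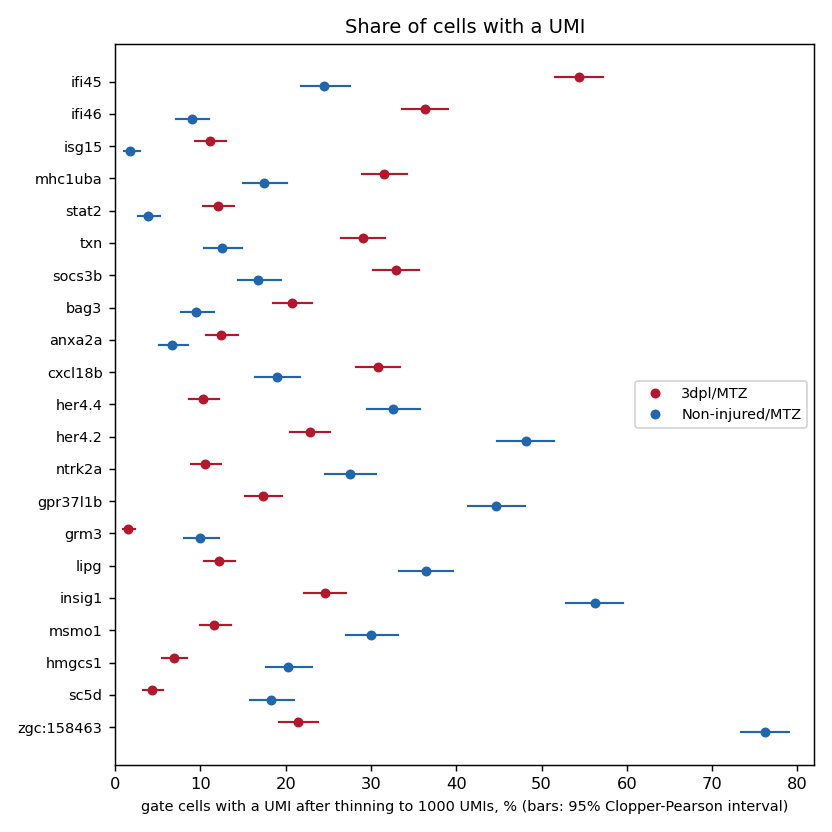
Share of gate cells with a UMI after thinning to 1000 UMIs (horizontal, %) for 21 genes described in the text (rows), in 3dpl/MTZ (red, upper point) and Non-injured/MTZ (blue, lower point), with 95% Clopper-Pearson intervals. The share of ifi45 is 54.4% in 3dpl/MTZ and 24.5% in Non-injured/MTZ, and that of insig1 is 24.6% in 3dpl/MTZ and 56.2% in Non-injured/MTZ.

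The pair of libraries without MTZ gave its own ratios for the same genes, and shared no library with the MTZ pair. In it, 296 of 6633 genes (4.46%) were higher and 238 (3.59%) were lower in 3dpl than in Non-injured. Over the 6501 genes measured in both pairs, the median log2 ratio was 0.03 with MTZ and −0.16 without. List medians of the pairs therefore have different centres. Of the 6501 genes 126 were higher in both, which is 54.5% of the 231 with MTZ and 49.8% of the 253 without. Fewer lower genes were past 2-fold in both: 44 were, 29.7% of the 148 with MTZ and 19.3% of the 228 without. Of all 6501 genes 3.89% were higher and 3.51% lower without MTZ. By side of 0 alone, 195 of the 231 higher genes and 127 of the 148 lower genes kept their direction without MTZ. None of the differences between the pairs was tested, and they also differ in the mpeg1 transgene and in the pool of fish.

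Interferon effectors were higher in each pair. Over the 15 members measured in both, the median log2 ratio was 2.49 with MTZ, where 10 passed 2-fold, and 3.22 without, where those 10 and 2 others did. The gene isg15 had 324 CPM in 3dpl/MTZ and 27.7 CPM in Non-injured/MTZ, and 1000.2 CPM in 3dpl and 49.2 CPM in Non-injured, which gives a log2 ratio of 4.34 (4.1 to 4.60) without MTZ. For rsad2 the log2 ratio without MTZ was 4.02 (3.80 to 4.24), and for helz2, a coactivator gene induced by interferon, it was 6.48 (5.11 to 8.36), against 1.6 (0.84 to 2.44) with MTZ. The 5 leading ifi27 relatives had smaller ratios without MTZ, though all 5 had higher levels in 3dpl than in 3dpl/MTZ, and in Non-injured than in Non-injured/MTZ. For ifi46 the log2 ratio was 1.75 (1.62 to 1.88) without MTZ, against 2.75 (2.60 to 2.92) with it. Its levels were 716 CPM in 3dpl, 679 CPM in 3dpl/MTZ, 212 CPM in Non-injured and 101 CPM in Non-injured/MTZ. For si:dkey-188i13.9 the intervals overlapped, with 3.91 (3.45 to 4.41) without MTZ and 4.38 (3.62 to 5.27) with it. At least 3 effector UMIs per 1000 were seen in 45.7% (42.4 to 48.9) of cells of 3dpl and 13.2% (10.7 to 16.1) of those of Non-injured. The gene apoeb had a log2 ratio of 3.33 (3.13 to 3.54) without MTZ and 1.23 with it.

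Sterol enzymes were lower in each pair. Over the 11 enzymes beyond squalene the median log2 ratio was −1.78 with MTZ and −2.08 without, with 9 and 10 past 2-fold, 9 of them in both. Over the 8 mevalonate enzymes measured in both it was −1.30 with MTZ and −1.48 without. Over all genes measured in both it was 0.03 with MTZ and −0.16 without. Of the her4 genes her4.4 was past 2-fold in each pair. For it the log2 ratio was −1.92 with MTZ and −1.04 (−1.12 to −0.97) without, while without MTZ her4.1 had one of −0.60 (−0.63 to −0.56) and her4.2 one of −1.07 (−1.11 to −1.03).

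Ratios of some receptors, transporters and other leading genes differed in size between the pairs. Without MTZ grm3 had 27.3 CPM in 3dpl and 25.7 CPM in Non-injured, a log2 ratio of 0.09 (−0.35 to 0.53), and SLC6A13 had 20.7 CPM in 3dpl and 24.3 CPM in Non-injured, a log2 ratio of −0.23 (−0.70 to 0.25). Both genes had their highest level of the 4 libraries in Non-injured/MTZ, at 101 and 64.3 CPM. The genes ntrk2a and gpr37l1b had log2 ratios of −0.63 (−0.80 to −0.45) and −0.82 (−0.96 to −0.68) without MTZ, under 2-fold, against −2.03 and −1.97 with it. For zgc:158463 the levels without MTZ were 780 CPM in 3dpl and 884 CPM in Non-injured. Thioredoxin txn had 922 CPM in 3dpl and 30.9 CPM in Non-injured, a log2 ratio of 4.90 (4.59 to 5.23), and the 182 CPM of Non-injured/MTZ stood between these levels.

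S phase genes had a median log2 ratio of 1.35 with MTZ and 0.86 without over the 23 measured in both, with 14 and 6 past 2-fold. A cell cycle load of 10 or more UMIs per 1000 was found in 4.99% (3.68 to 6.599) of cells of 3dpl and 2.0% (1.07 to 3.40) of those of Non-injured. At 3 or more UMIs the shares were 33.9% (30.9 to 37.1) in 3dpl and 33.5% (29.9 to 37.3) in Non-injured. Mitochondrial transcripts had a median log2 ratio of 0.66 with MTZ and −0.10 without. Cytosolic ribosomal protein genes had medians of 0.25 and 0.85, and without MTZ 12 of the 81 were at least 2-fold higher. The filament gene vim had 837 CPM in 3dpl and 362 CPM in Non-injured, a log2 ratio of 1.21 (1.11 to 1.31), against 0.19 with MTZ.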

How the data were processed

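The deposited matrices hold UMI counts per gene and cell barcode, not normalized. The authors made them with Cell Ranger, version 4.0.0 per the file headers and 3.1.0 per the submitters' processing notes, on GRCz11; the annotation release is not given in the sources used here. Counts were summed over symbols with more than 1 of the 25107 identifiers, which left 24435 symbols, and 23499 identifiers had an entry in the gene name table used here. No sequence or genome was used, so no coordinates are given. The transgenes are not among the features.

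The members, gene lists and markers were chosen with earlier results of these data known. Cells were filtered and gated as the report states, with no doublets removed in the main values; leaving out the top 0.8% of cells per 1000 barcodes by Scrublet score (scanpy 1.11.5) was an alternative. CPM is the count scaled to 1000000 gate UMIs. Ratios carry exact conditional binomial intervals, levels exact Poisson intervals and shares exact Clopper-Pearson intervals at 95%. With 1 library a side no test was run. Total depth was 7541363 UMIs in 3dpl/MTZ and 3639735 in Non-injured/MTZ. Cells with under 1000 UMIs, 59 of 3dpl/MTZ and 361 of Non-injured/MTZ, were left out of thinned shares.

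The leading genes are the 15 higher and 15 lower that rank first by the interval bound nearest to 0, among genes with at least 100 UMIs, a 2-fold ratio, a UMI in at least 5% of thinned cells where higher, share intervals that do not overlap and at most 10% of UMIs from 1 cell. Genes outside that rule are named as list members or were chosen after their values were seen. Ratios were checked on simulated counts. TMM factors came from edgeR 4.0.16 in R 4.3.3. A lower leading gene and a few list members are not reported here by name.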

Additional observations from a re-analysis of the deposited data

Results flagged for a closer look

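The ferritin gene fthl28, an iron-storage gene, lay on opposite sides in the 2 pairs, with a log2 ratio of −1.40 (−1.87 to −0.94) for 3dpl/MTZ over Non-injured/MTZ and of 2.04 (1.45 to 2.68) for 3dpl over Non-injured. Its levels were 10.9 CPM in 3dpl/MTZ, 28.9 CPM in Non-injured/MTZ, 40.9 CPM in 3dpl and 9.92 CPM in Non-injured. The neurogranin gene nrgna, a calmodulin-binding protein gene, had log2 ratios of 1.61 (1.12 to 2.14) with MTZ and −1.12 (−1.71 to −0.53) without, and 1 cell held 54.0% of its UMIs in 3dpl/MTZ. These differences between the pairs were not tested.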

How the results depend on the processing

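Of the 30 leading genes none changed direction and 27 stayed past 2-fold under all 15 alternatives. The exceptions, with each gene counted at most once per cell, were ifi45, txn and rsad2, with log2 ratios of 0.59, 0.65 and 0.84. Against 285 higher and 222 lower genes, a filter of at least 20 UMIs gave 799 higher and 900 lower and one of at least 300 gave 120 higher and 76 lower. Without the fabp7a gate 699 were higher, and thinned cells gave 85 higher and 77 lower. Lower genes numbered 146 under the stricter cell filter of 800 genes and 10% mitochondrial UMIs, 488 with cells weighted equally and 96 with each gene at most once per cell. The 10 higher interferon effectors of 16 became 22 of the 31 with at least 20 UMIs, 4 at 300 UMIs, 4 counted once per cell and 3 in thinned cells. The 9 antigen presentation genes became 4, 5 and 4 under the last 3 of these, and the 17 sterol genes 11, 11 and 10. Fewer UMIs or genes enter under the higher minimum and in thinned cells; for the other settings the cause was not tested. The share of interferon cells, 35.7% in 3dpl/MTZ and 6.83% in Non-injured/MTZ, was, in the same order, 65.1% and 38.7% at 1 UMI, 25.1% and 3.92% at 5 UMIs, 46.5% and 11.2% thinned to 2000 UMIs, and 64.7% and 21.1% with no thinning. Without ifi45, an alternative chosen after seeing the data, it was 10.1% and 0.784%, and without the gate it was 31.3% in 3dpl/MTZ. The sterol share, 8.57% in 3dpl/MTZ and 35.4% in Non-injured/MTZ, was likewise 42.0% and 74.7% at 1 UMI, 3.72% and 16.6% at 5 UMIs, 20.9% and 62.2% thinned to 2000 UMIs, and 40.3% and 55.7% with no thinning. Of 32 list medians 10 changed sign under some alternative: the lists of beta-catenin, chemokines, immediate early genes, heat shock, retinoid handling, growth factors, redox and stress, ribosomal proteins, solute carriers and mitochondrial transcripts. The last had a median of 0.66, and −0.29 with each gene counted at most once per cell. No paired analysis was possible because each group is 1 library. The planned search of promoter motifs was not run, since no promoter sequence was used here. With 1 library a side, depth limits genes under 100 UMIs, and spread between fish cannot be seen.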
